A study of Danio rerio with 6 samples.

Results

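Many zebrafish genes are still listed under the name of the clone that first carried their sequence: zgc: for the Zebrafish Gene Collection of cDNA clones, si: for Sanger Institute genomic clones, im: and wu: for other expressed-sequence collections. Such a name says nothing of function, and these genes drop out of most gene lists. In the libraries of sorted red-fluorescent cells described here, 91 of the 1792 clone-named genes of the deposited table separated the genotypes. Of these, 66 had a zgc: name and 25 an si: name. The table holds 14781 genes. A member had a higher group mean of at least 50 normalized counts, group means at least 2-fold apart, and every library of one genotype above every library of the other. The levels themselves chose the members, so their values and folds are descriptions and carry no test.

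Red-fluorescent cells were sorted from larval zebrafish (Danio rerio) eyes at 5 days post-fertilization (dpf). The groups were larvae labelled samd7-/-, from parents both homozygous for the allele stl888, with 3 libraries, and wild-type (WT) larvae, with 3 libraries. One parent of every cross carried a single copy of thrb:tdTomato, so the sorted cells of both groups carried this reporter, which is driven by regulatory sequence of the thyroid hormone receptor gene thrb. Each library pooled 40 to 50 eyes of 20 to 25 larvae from its own clutch, and only some larvae of a clutch were genotyped. The genotypes had different parents, so line and genotype cannot be told apart.

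A vertebrate cone normally makes 1 opsin and a matching set of signalling proteins, and thrb is needed for the red-cone fate in zebrafish. Samd7 is a photoreceptor protein linked to Polycomb, the machinery that keeps silenced genes silent. Normalized counts are the deposited values, read counts over 1 size factor per library, and 1 read was worth 0.747 to 1.33 of them. The recovered reads summed to 18418834, 18956650 and 20369266 in mutant-labelled libraries 1 to 3 and to 15621680, 18911482 and 13435570 in WT libraries 1 to 3. The transcript of samd7 was higher in the libraries labelled samd7-/- (24329 ± 543 against 7683 ± 896 normalized counts in WT, SD, n = 3 each), so it does not check the genotype, and these are called mutant-labelled below. The reporter's own gene thrb averaged 10677 ± 604 in mutant-labelled and 14152 ± 2052 in WT libraries. Mutant-labelled library 3 and WT library 2 stood apart from their groups on the second principal component (22.8% of the variance). They lay at -75.0 and -75.5 there, and the others between 5.15 and 66.1. On the first (29.0%) mutant-labelled library 3 lay at -112, against -22.1 and -24.4 for libraries 1 and 2. WT library 2 lay at 88.9 there, against 24.9 and 44.9 for WT libraries 1 and 3.

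Of the members, 59 were lower and 32 higher in the mutant-labelled libraries. In pooled sorted cells, fewer cells of a type and less RNA per cell cannot be told apart. The WT means of the lower members had a median of 479 normalized counts and reached 233075, while the mutant-labelled means of the higher members had a median of 115 and reached 713. The same order held for the other genes of the table that met these criteria, whose medians in the higher group were 873 for lower and 267 for higher genes. At least 1000 normalized counts in the higher group were found for 22 of the lower and 0 of the higher members. The 59 lower members summed to 107399, 87236 and 122415 normalized counts in mutant-labelled libraries 1 to 3, against 419005, 388242 and 364336 in WT libraries 1 to 3. A single gene, zgc:73075, made up more than any other, and without it the sums were 46438, 51311 and 68413 in mutant-labelled and 154339, 150737 and 167283 in WT libraries. The 32 higher members summed to only 6406, 5887 and 6665 in mutant-labelled and 2375, 1910.2 and 2282 in WT libraries.

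**Figure D1:**
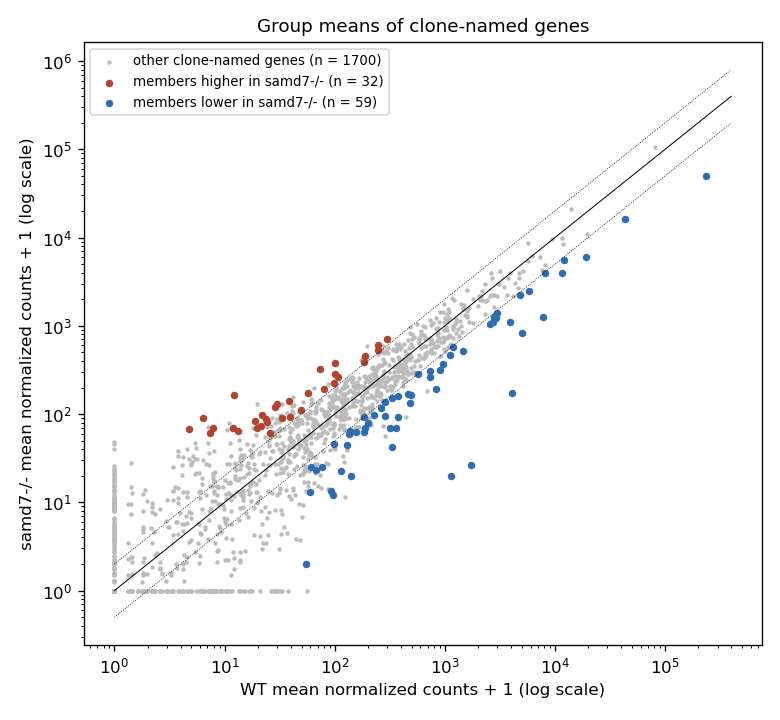
Mean normalized counts plus 1 in samd7-/- libraries (vertical, log scale) against WT libraries (horizontal, log scale), 1 point a clone-named gene, 3 libraries a mean; the solid line marks equal means and the dotted lines a 2-fold difference. The 32 members higher in samd7-/- (red) lie at low levels, with samd7-/- means of at most 713, while the 59 lower members (blue) reach a WT mean of 233075.

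The same numerical criteria were met by 6.52% of all genes of the table, 2.99% higher and 3.53% lower. They were met by 5.13% of clone-named genes and 6.71% of the other genes, shares that depend on level, because 41.8% of clone-named genes and 62.5% of the others reached 50 normalized counts. Among genes that reached it the shares were 12.3% and 10.7%. Of the members 64.8% were lower, against 53.0% of the 872 other genes that met the criteria. The median fold was 2.79 for the lower and 3.60 for the higher members, against 2.64 and 2.81 for the other genes. These shares rest on the contrast that chose the genes, and nothing further is read from them. When every library was scaled to the same total instead of by the deposited size factors, 101 clone-named genes met the rule, 58 higher and 43 lower, so the split depends on the scaling. Of the 91 members, 75 met the rule under that scaling, and the difference kept its sign in all 91. The sign could not change, because members differ at least 2-fold and the rescaling shifted the libraries by less. This scaling placed the median log2 difference of all genes tested at 0.28, against 0.05 with the deposited values.

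A fit across all genes served as background (limma on log2 of normalized counts plus 1, Benjamini-Hochberg adjusted p under 0.05). It called 5.17% of 9886 genes, 1.26% higher and 3.9% lower, or 125 and 386 genes. With every library scaled to the same total that split turned over, to 415 higher and 252 lower. With the deposited scaling, groups that do not overlap were found for 24.5% of them. Of the 90 members that passed its filter on low values 28 were called, 26 lower and 2 higher. By the authors' deposited table, 41 of the 91 members had an adjusted p under 0.05, against 9.09% of all genes with one. The members were chosen by the same contrast, so these counts support nothing. The nearest libraries of the genotypes were at least 2-fold apart for 15 of the lower and 7 of the higher members, and less than 1.2-fold apart for 9 and 11.

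**Figure D2:**
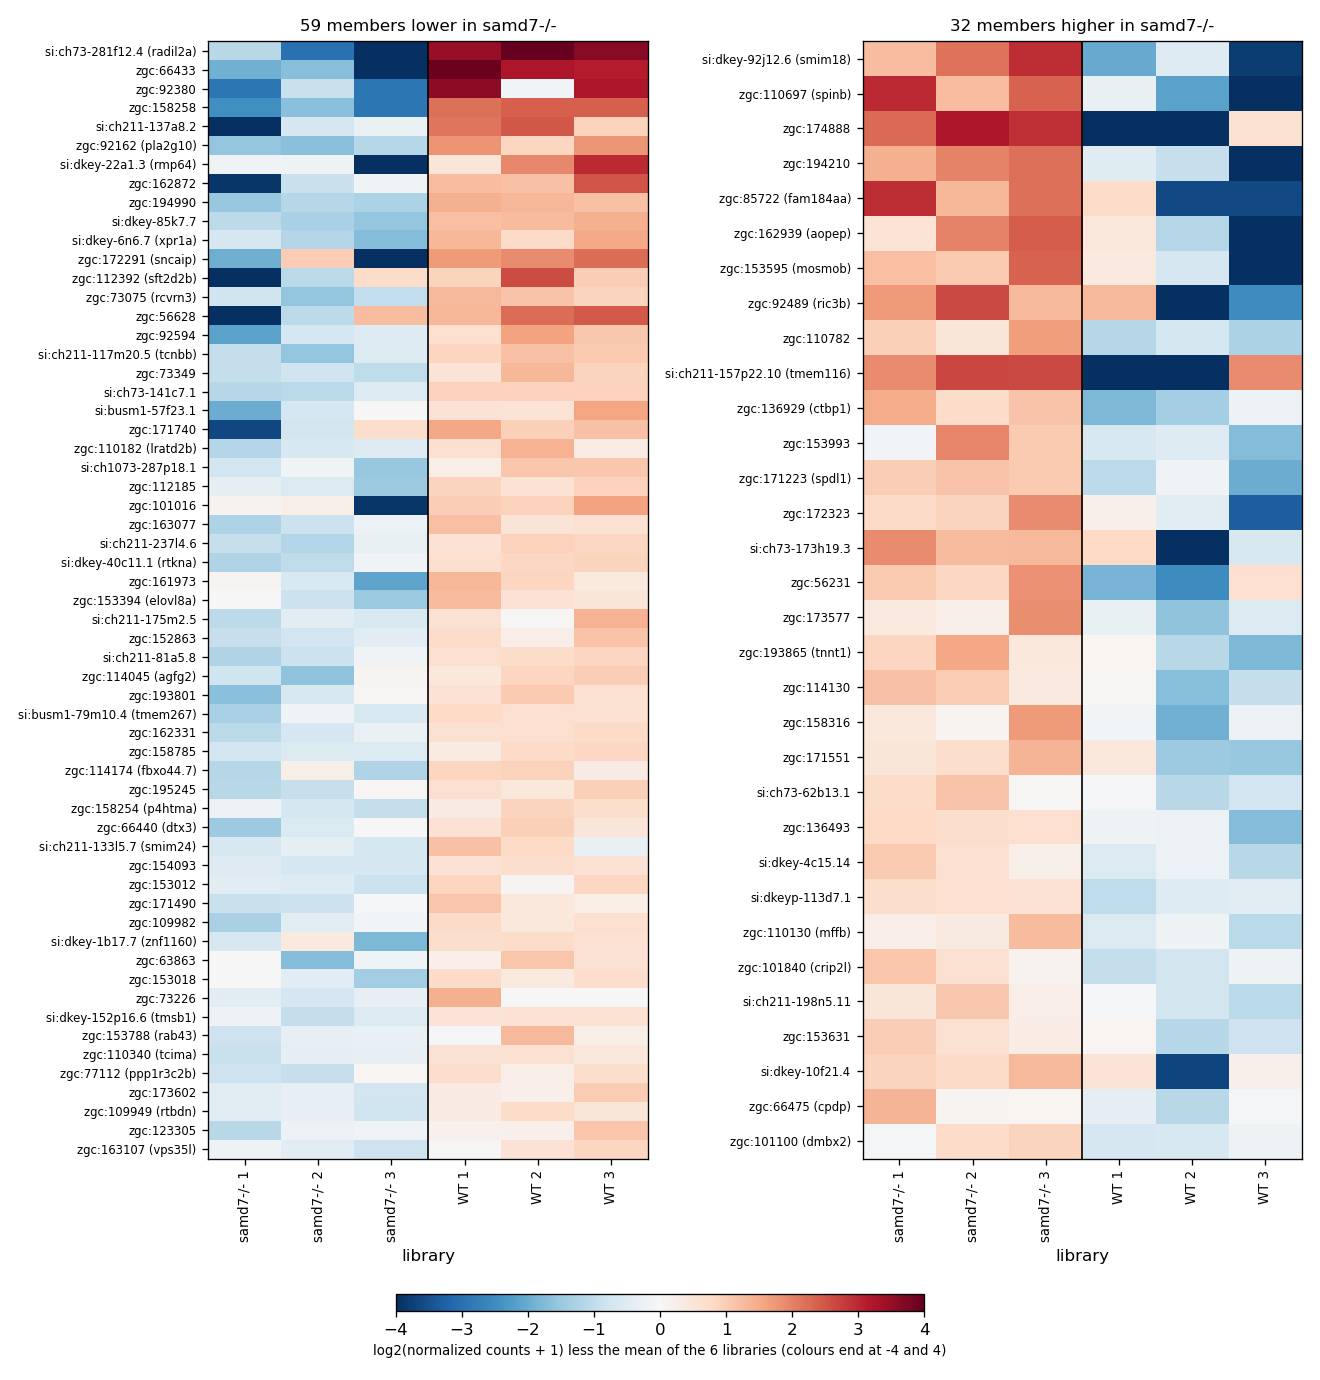
Each row is a member and each column a library, samd7-/- left of the black line and WT right of it; colour gives log2(normalized counts + 1) less the gene's mean over the 6 libraries, ending at -4 and 4. Rows are ordered by the ratio of group means, and present gene symbols stand in parentheses. Most of the 59 lower members are of even colour within WT, while the higher members vary more within WT, where 10 of 32 have a library at 0.

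Present names were looked up in the RefSeq gene table of assembly GRCz12tu, a later build than the danRer10 build named in the submitters' processing notes. There 38 of the 91 members, 24 lower and 14 higher, carry a gene symbol that is no longer a clone name. Another 50 keep the name of the deposited table, zgc:73349 is listed under another clone name, and zgc:158316 and zgc:173602 were not matched. The share with a symbol, 41.8%, was close to the 42.5% of all clone-named genes that reached 50 normalized counts. Below, a symbol in parentheses is the RefSeq one, and library values run from 1 to 3.

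The members with symbols were grouped by role, after their values were seen. In the first group, of calcium, ligand, lipid and metabolic proteins, 8 of 9 members were lower. The most abundant member of all was zgc:73075 (rcvrn3), a recoverin, of the family of calcium sensors that restrain the opsin kinases of photoreceptors. It had 60961, 35925 and 54002 normalized counts in mutant-labelled libraries, against 264666, 237505 and 197053 in WT libraries, and was 4.63-fold lower. The nearest libraries of the genotypes were still 3.23-fold apart. Retinal flavin binding was represented by zgc:109949 (rtbdn), retbindin, known from the mammalian retina. It had 4101, 4472 and 3227 normalized counts in mutant-labelled libraries, against 7093, 9380.2 and 7849.8 in WT libraries, a 2.06-fold difference close to the limit of the rule.

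Lipid enzymes were represented by zgc:92162 (pla2g10), a secreted phospholipase, and zgc:153394 (elovl8a), a fatty acid elongase of fish. The phospholipase had 37.2, 35.1 and 50.6 normalized counts in mutant-labelled libraries, against 399, 208 and 386 in WT libraries, and was 8.08-fold lower. The elongase had 410.4, 230.1 and 148 normalized counts in mutant-labelled libraries, against 995, 625 and 579 in WT libraries, and was 2.79-fold lower. The nearest libraries of the genotypes were 4.11-fold apart for the phospholipase and 1.41-fold apart for the elongase. Carriers and transporters were lower too: si:dkey-6n6.7 (xpr1a), a relative of the mammalian phosphate exporter, had 94.1, 66.5 and 44.5 normalized counts in mutant-labelled libraries, against 384, 258 and 437 in WT libraries, and was 5.26-fold lower. A cobalamin carrier gene of the transcobalamin family, si:ch211-117m20.5 (tcnbb), had 93.3, 60.5 and 125 normalized counts in mutant-labelled libraries, against 336, 417 and 382 in WT libraries, and was 4.08-fold lower. These 2 genes were of middling level and well apart between genotypes.

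The prolyl hydroxylase of the endoplasmic reticulum zgc:158254 (p4htma) had 594, 428 and 366 normalized counts in mutant-labelled libraries, against 883, 1298 and 1145 in WT libraries. Its difference was 2.396-fold. A targeting subunit that brings protein phosphatase to glycogen, zgc:77112 (ppp1r3c2b), had 449, 427 and 842 normalized counts in mutant-labelled libraries, against 1316, 956 and 1295 in WT libraries, and was 2.08-fold lower, with mutant-labelled library 3 close to the lowest WT library. The only member of the group that was higher, zgc:162939 (aopep), encodes an aminopeptidase. It had 27.2, 74.7 and 101 normalized counts in mutant-labelled libraries, against 25.3, 7.801 and 0 in WT libraries, so its 6.14-fold difference rests on few reads and the nearest libraries almost touched.

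**Figure D3:**
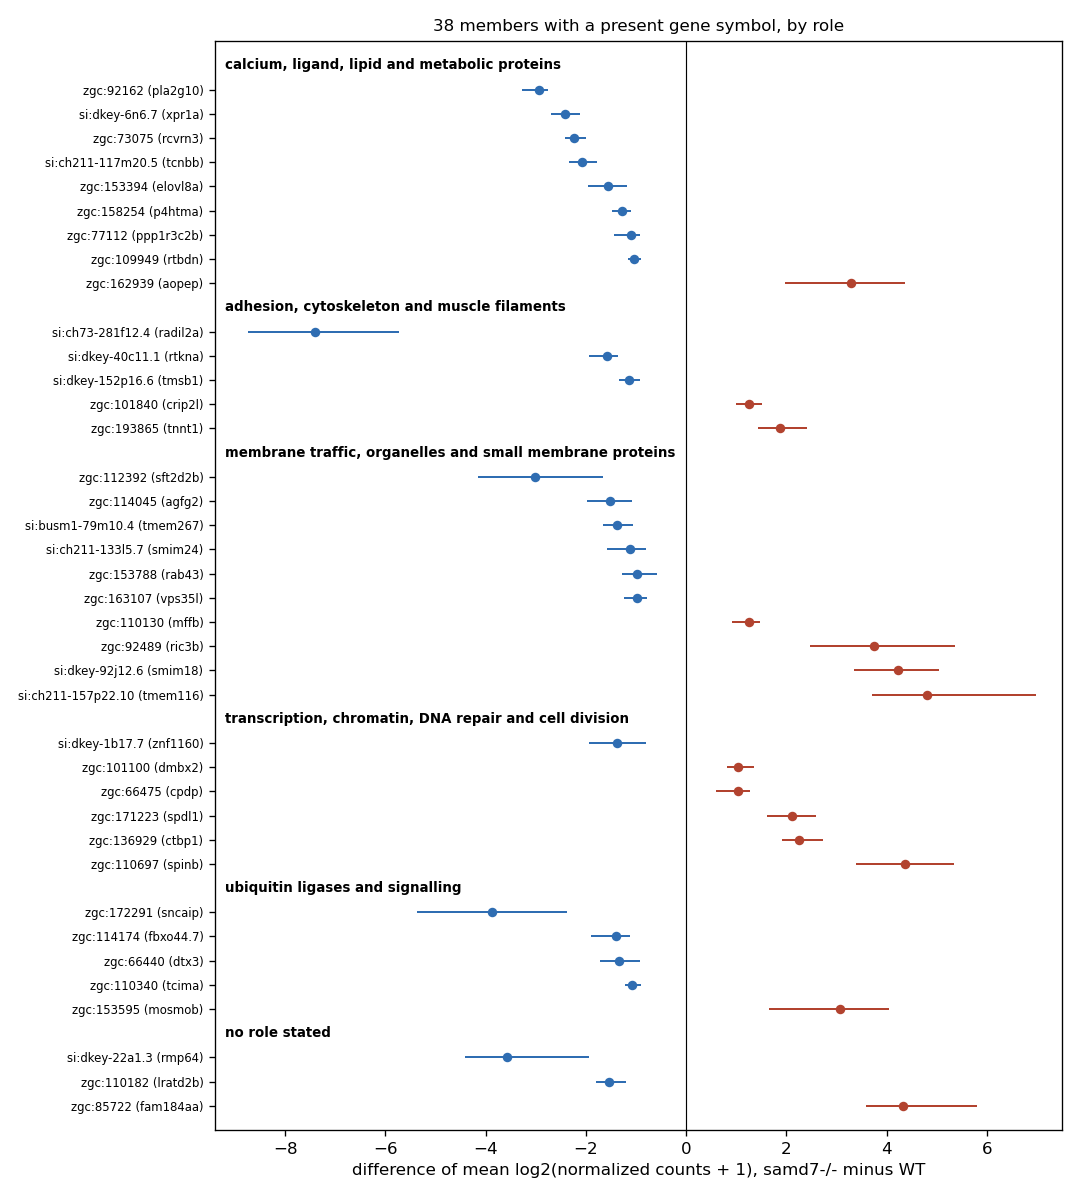
Difference of mean log2(normalized counts + 1), samd7-/- minus WT, for the 38 members with a present gene symbol (points), grouped by role; lines span the values obtained with 1 library left out. The metabolic group lies left of 0 except aopep. The group of transcription, chromatin, DNA repair and cell division lies right of 0 except znf1160, with the lower gene tcima placed under signalling. Long lines belong to members with a library at 0, such as radil2a.

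Of 5 members of adhesion, cytoskeleton and muscle filaments 3 were lower and 2 higher. The largest ratio of all members belonged to si:ch73-281f12.4 (radil2a), of a family of Rap effectors in cell adhesion. It had 60.3, 15.7 and 0 normalized counts in mutant-labelled libraries, against 1459, 2125 and 1628 in WT libraries, and was 68.6-fold lower. With 1 mutant-labelled library at 0, its limma log2 difference moved between -8.71 and -5.75 as single libraries were left out, while edgeR gave -6.09. The rhotekin-family gene si:dkey-40c11.1 (rtkna) had 363, 414 and 757 normalized counts in mutant-labelled libraries, against 1330.2, 1506 and 1551 in WT libraries, and was 2.86-fold lower. The actin-monomer-binding thymosin si:dkey-152p16.6 (tmsb1) had 2824, 1679 and 2223 normalized counts in mutant-labelled libraries, against 4638, 4807 and 5009 in WT libraries, and was 2.15-fold lower. WT libraries of both were within a narrow range.

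The higher members of this group were at lower levels. A LIM-domain gene, zgc:101840 (crip2l), had 960.3, 685 and 494 normalized counts in mutant-labelled libraries, against 231, 270.1 and 386 in WT libraries, and was the most abundant of all higher members (2.41-fold). The name zgc:193865 stands in RefSeq for tnnt1, the troponin T of slow skeletal muscle. It had 71.8, 117 and 53.2 normalized counts in mutant-labelled libraries, against 42.1, 17.6 and 10.6 in WT libraries, a 3.45-fold difference. The deposited table also has an entry named tnnt1, which was at 0 in all 6 libraries, and whether both entries denote the same locus was not tested.

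Among 10 members of membrane traffic, organelles and small membrane proteins, 6 were lower and 4 higher. The ArfGAP-family gene zgc:114045 (agfg2) had 321, 184 and 609 normalized counts in mutant-labelled libraries, against 743, 1019.9 and 1108 in WT libraries, and was 2.58-fold lower. The retriever subunit gene zgc:163107 (vps35l), of endosomal recycling, had 342, 289.8 and 223 normalized counts in mutant-labelled libraries, against 407, 591 and 720.2 in WT libraries. At 2.01-fold it was the member nearest to the fold limit. The Golgi-traffic GTPase gene zgc:153788 (rab43) had 49.5, 70.2 and 71.5 normalized counts in mutant-labelled libraries, against 86.6, 218 and 105 in WT libraries, a 2.14-fold difference, and a separate entry named rab43 had 219, 386 and 48.8 in mutant-labelled and 285, 223 and 274 in WT libraries, so those groups overlapped.

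Small membrane proteins went both ways. The gene si:ch211-133l5.7 (smim24) had 291, 353 and 279 normalized counts in mutant-labelled libraries, against 1032, 786 and 371 in WT libraries, and was 2.37-fold lower on average. Its WT libraries were spread, and WT library 3 was just above mutant-labelled library 2. By contrast si:dkey-92j12.6 (smim18) had 31.4, 61.3 and 106 normalized counts in mutant-labelled libraries, against 2.41, 8.78 and 0 in WT libraries, and with 17.8-fold showed the largest ratio of the higher members. Of the transmembrane genes, si:busm1-79m10.4 (tmem267) had 38.8, 84.4 and 62.8 normalized counts in mutant-labelled libraries, against 168, 151 and 146 in WT libraries, and was 2.51-fold lower. The other, si:ch211-157p22.10 (tmem116), had 86.7, 149 and 146 normalized counts in mutant-labelled libraries, against 0, 0 and 86.5 in WT libraries; its group means were 4.42-fold apart, yet mutant-labelled library 1 and WT library 3 were nearly equal.

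The mitochondrial fission factor gene zgc:110130 (mffb), whose product recruits the fission machinery to mitochondria in mammals, had 440.1, 477 and 879.7 normalized counts in mutant-labelled libraries, against 244, 319 and 174 in WT libraries, and was 2.44-fold higher. The gene zgc:92489 (ric3b) belongs to a family of acetylcholine-receptor chaperones known from Caenorhabditis elegans and mammals. It had 66.9, 131 and 50.6 normalized counts in mutant-labelled libraries, against 50.5, 0 and 2.66 in WT libraries, a 4.67-fold difference of means, though mutant-labelled library 3 (50.6) and WT library 1 (50.5) were nearly equal. A relative of a yeast Golgi-traffic gene, zgc:112392 (sft2d2b), had 0, 7.47 and 28.8 normalized counts in mutant-labelled libraries, against 32.5, 109 and 34.6 in WT libraries, and was 4.86-fold lower, again with neighbouring values across genotypes.

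Transcription, chromatin, DNA repair and cell division gave the group with the most higher members, 5 of 6. This split depends on the grouping, since the lower member zgc:110340 (tcima), also named for transcription, was placed with signalling. The kinetochore adaptor gene zgc:171223 (spdl1), Spindly, which links dynein to chromosomes in mitosis, had 362, 404 and 377 normalized counts in mutant-labelled libraries, against 89.0, 167 and 45.3 in WT libraries, and was 3.798-fold higher. The co-repressor gene zgc:136929 (ctbp1) had 405, 241 and 316 normalized counts in mutant-labelled libraries, against 40.9, 54.6 and 122 in WT libraries, and was 4.42-fold higher. These were the 2 higher members called by limma, though neither was called by edgeR on the recovered reads or with the replicate number as a block. For both the lowest mutant-labelled library stood well above the highest WT library. The table has another entry named ctbp1, with 1325, 1686 and 1680.1 in mutant-labelled and 913, 1611 and 978 in WT libraries, where the groups overlapped. How counting treated reads that match both entries is not stated.

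The gene zgc:110697 (spinb), of the spindlin family of histone-methylation readers, had 137, 39.6 and 88.1 normalized counts in mutant-labelled libraries, against 13.2, 2.93 and 0 in WT libraries, and was 16.4-fold higher from very low WT levels. The homeobox gene zgc:101100 (dmbx2) had 246, 433 and 489 normalized counts in mutant-labelled libraries, against 164, 166 and 225 in WT libraries, with a 2.11-fold difference. The photolyase gene zgc:66475 (cpdp), which repairs ultraviolet damage of DNA with light, had 874, 365 and 356 normalized counts in mutant-labelled libraries, against 261, 156 and 319 in WT libraries, a 2.17-fold difference carried largely by mutant-labelled library 1. Without that library its limma log2 difference was 0.61, against 1.04 with all 6 libraries. The zinc-finger gene si:dkey-1b17.7 (znf1160) was the lower member, with 38.0, 79.9 and 16.6 normalized counts in mutant-labelled libraries, against 99.8, 101 and 91.8 in WT libraries and a 2.18-fold difference.

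Of 5 members grouped under ubiquitin ligases and signalling, 4 were lower. The gene zgc:110340 (tcima), named for a regulator of transcription and immune responses, had 1082, 1539 and 1606 normalized counts in mutant-labelled libraries, against 3089.8, 3072 and 2722 in WT libraries, and was 2.102-fold lower. The Deltex-type ubiquitin ligase gene zgc:66440 (dtx3) had 84.2, 158 and 236 normalized counts in mutant-labelled libraries, against 354, 452 and 329 in WT libraries, and was 2.37-fold lower. The first of these was steady within genotypes, and the second was not, its mutant-labelled libraries spanning 84.2 to 236. An F-box gene of a multigene family, zgc:114174 (fbxo44.7), had 15.7, 42.6 and 14.8 normalized counts in mutant-labelled libraries, against 64.9, 68.3 and 45.3 in WT libraries, with 2.44-fold between groups. Whether similar genes of the family affected its counts was not tested. The synuclein-interacting gene zgc:172291 (sncaip) had 6.61, 58.3 and 0 normalized counts in mutant-labelled libraries, against 93.8, 108 and 136 in WT libraries, and was 5.21-fold lower, with widely spread mutant-labelled libraries. The gene zgc:153595 (mosmob), of a family that dampens Hedgehog signalling in mammals, was the higher one, with 45.4, 40.3 and 102 normalized counts in mutant-labelled libraries, against 25.3, 11.7 and 0 in WT libraries and a 5.08-fold difference.

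For 3 members with symbols no role is stated. The gene zgc:110182 (lratd2b) had 69.4, 100.1 and 111 normalized counts in mutant-labelled libraries, against 244, 414 and 192 in WT libraries, and was 3.03-fold lower. In si:dkey-22a1.3 (rmp64) there were 28.9, 27.6 and 0 normalized counts in mutant-labelled libraries, against 44.5, 123 and 256 in WT libraries, a 7.48-fold difference with WT libraries that spread widely. The gene zgc:85722 (fam184aa) had 94.1, 29.9 and 54.9 normalized counts in mutant-labelled libraries, against 19.2, 0 and 0 in WT libraries, and was 9.298-fold higher, WT libraries 2 and 3 being at 0.

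Several of the widest gaps belonged to genes whose present RefSeq symbol is still a clone name. The gene zgc:66433 had 26.4, 30.6 and 0 normalized counts in mutant-labelled libraries, against 1549, 971 and 915 in WT libraries, and was 60.2-fold lower. With mutant-labelled library 3 at 0, its limma log2 difference of -6.87 ranged from -7.73 to -5.24 with 1 library left out, the smallest in size without that library. The gene zgc:158258 had 148, 255 and 109 normalized counts in mutant-labelled libraries, against 3768, 4293 and 4281 in WT libraries, and was 24.1-fold lower, with no WT library under 3768 and no mutant-labelled library over 255. Its limma log2 difference was -4.67 (SE 0.32) and ranged from -5.00 to -4.39 with 1 library left out. These values come from the libraries that chose the gene, so they are no check of its difference. The gene zgc:194990 had 1106, 1407 and 1303 normalized counts in mutant-labelled libraries, against 8373, 7942 and 6993 in WT libraries, and was 6.11-fold lower. The entry si:dkey-85k7.7 had 969, 827 and 691 normalized counts in mutant-labelled libraries, against 4661, 4848 and 5447 in WT libraries, and was 6.01-fold lower. In both the libraries of a genotype lay close together.

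The remaining large ratios among lower genes without a symbol came from low levels. The gene zgc:92380 had 0, 2.99 and 0 normalized counts in mutant-labelled libraries, against 87.8, 5.85 and 69.2 in WT libraries, so the mutant-labelled group held 4 reads in all and WT library 2 was close to it. The gene si:ch211-137a8.2 had 0, 14.2 and 19.2 normalized counts in mutant-labelled libraries, against 106, 136 and 45.3 in WT libraries, an 8.59-fold difference. For zgc:162872 there were 0.83, 13.4 and 23.5 normalized counts in mutant-labelled libraries, against 62.5, 60.5 and 154 in WT libraries, a 7.34-fold difference. In each of these a mutant-labelled library was at or near 0.

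Among the most abundant members without a symbol, si:ch211-81a5.8 had 11163, 14308 and 23219 normalized counts in mutant-labelled libraries, against 40178, 42792 and 46666 in WT libraries, and was 2.66-fold lower. The entry si:ch211-237l4.6 had 3526, 2952 and 5436 normalized counts in mutant-labelled libraries, against 9936, 12644 and 11865 in WT libraries, and was 2.89-fold lower. In both, mutant-labelled library 3 was the highest of its group and remained under every WT library. RefSeq lists cystatin as another name of si:busm1-57f23.1, cystatins being inhibitors of cysteine proteases. It had 2460.5, 5980.0 and 9531 normalized counts in mutant-labelled libraries, against 14351, 14105 and 28823 in WT libraries, and was 3.19-fold lower, with wide spread in both groups. RefSeq gives nip2 as another name of zgc:73226. This gene had 5743, 4918 and 6203 normalized counts in mutant-labelled libraries, against 20685, 7931 and 7643 in WT libraries, and its 2.15-fold difference of means rests in good part on WT library 1. Without that library its limma log2 difference was -0.48, against -0.95 with all 6 libraries.

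**Figure D4:**
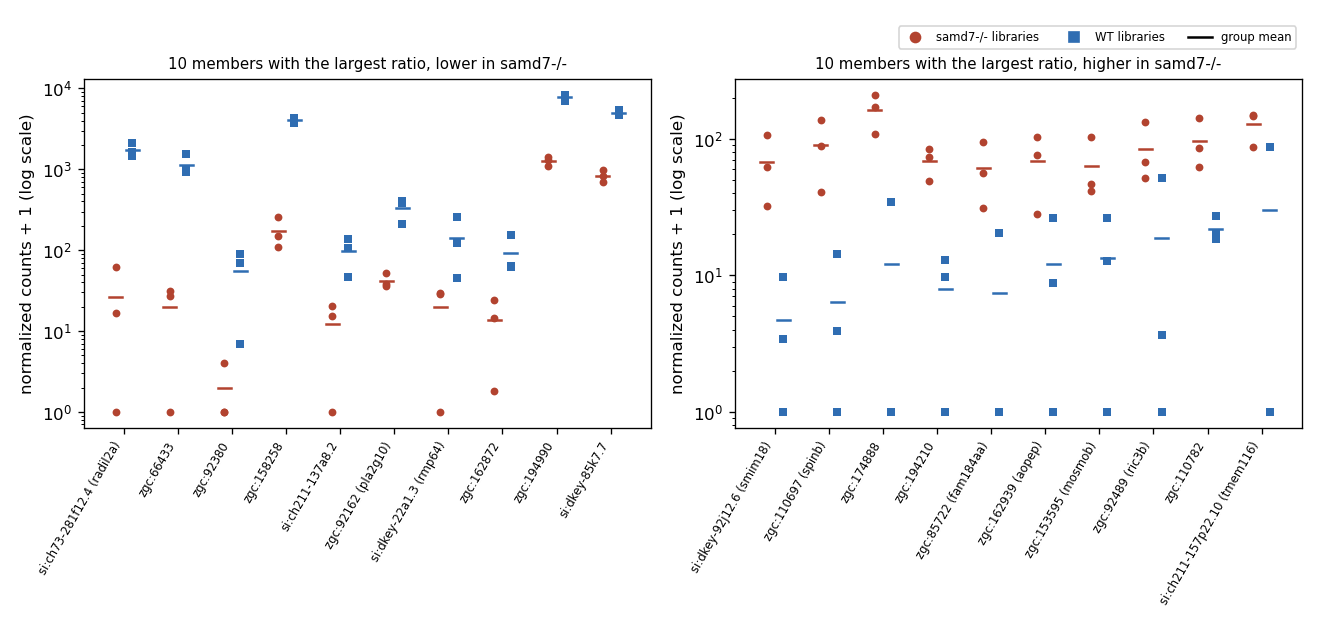
Normalized counts plus 1 (log scale) per library for the 10 members with the largest ratio in each direction, samd7-/- libraries (red circles) left of WT libraries (blue squares), with group means as bars. On the left panel zgc:158258, zgc:194990 and si:dkey-85k7.7 have tight WT groups at high levels. On the right panel no library of the 10 higher members exceeds 209 normalized counts. Of these members, 9 have at least 1 WT library at 0.

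Among higher members without a symbol, zgc:174888 had 107, 209 and 169 normalized counts in mutant-labelled libraries, against 0, 0 and 33.3 in WT libraries, and was 14.6-fold higher with WT libraries 1 and 2 at 0. The gene zgc:194210 had 47.9, 72.5 and 83.7 normalized counts in mutant-labelled libraries, against 12.0, 8.78 and 0 in WT libraries, and was 9.81-fold higher. The gene zgc:110782 had 84.2, 61.3 and 141 normalized counts in mutant-labelled libraries, against 19.2, 26.3 and 17.3 in WT libraries, and was 4.56-fold higher, its WT libraries all above 0 and close together. At a higher level, si:dkeyp-113d7.1 had 469, 464 and 435 normalized counts in mutant-labelled libraries, against 143, 204 and 212 in WT libraries, with a 2.45-fold difference and little spread among mutant-labelled libraries.

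The other 35 members have no symbol. Of the lower ones, 15 were 2.07-fold to 2.98-fold lower, at WT means of 129 to 5836: zgc:101016, zgc:163077, zgc:161973, si:ch211-175m2.5, zgc:152863, zgc:193801, zgc:162331, zgc:158785, zgc:195245, zgc:154093, zgc:171490, zgc:109982, zgc:63863, zgc:153018 and zgc:173602. Another 6 were 3.02-fold to 4.54-fold lower, at WT means of 76.5 to 3874: zgc:56628, zgc:92594, zgc:73349, si:ch73-141c7.1, zgc:171740 and si:ch1073-287p18.1. Of the higher ones, 8 were 2.28-fold to 2.83-fold higher, at mutant-labelled means of 60.8 to 282: si:dkey-10f21.4, zgc:153631, si:ch211-198n5.11, si:dkey-4c15.14, zgc:136493, si:ch73-62b13.1, zgc:171551 and zgc:158316. The last 6 were 3.06-fold to 4.29-fold higher, at 68.4 to 171: zgc:114130, zgc:173577, zgc:56231, si:ch73-173h19.3, zgc:172323 and zgc:153993.

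Counts limit the lower group of many of these ratios. The group with fewer reads held under 50 reads over its 3 libraries for 9 of the higher and 4 of the lower members, and no member had fewer than 131 reads in its larger group. A WT library was at 0 for 10 of the higher members and a mutant-labelled library for 8 of the lower ones, but no member was at 0 in a whole group. A library at 0 allows up to 3 reads, which is 2.24 to 2.62 normalized counts in mutant-labelled and 2.92 to 3.99 in WT libraries. This covers counting error only, since cDNA was amplified for 14 and libraries for 15 cycles without molecular identifiers.

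The scatter within a genotype was larger in the group at the lower level. For the lower members the median coefficient of variation was 37.4% in mutant-labelled and 20.9% in WT libraries, and for the higher members it was 34.7% and 61.3%. The rule kept only genes without overlap between genotypes, so genes with more scatter are left out of these values. Among the mutant-labelled libraries of the lower members, library 3 was the highest for 29 and the lowest for 23. Library 1 was the highest for 15 of these members and the lowest for 27. Among the higher members, library 3 was the highest for 13 and the lowest for 11, and library 1 the highest for 11 and the lowest for 11.

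Members close to the limits of the rule show how it worked. Just inside the level limit were zgc:92380, zgc:112392 and zgc:114174, with WT means of 54.3, 58.8 and 59.5 normalized counts. Just outside were zgc:172106, with 47.1 in mutant-labelled libraries and 0 in WT, si:dkey-228a15.1, with 8.48 and 46.6, and zgc:86609, with 46.1 and 4.44. Just inside the fold limit were zgc:163107, zgc:123305 and zgc:109949, with 2.01-fold, 2.01-fold and 2.06-fold between groups. Just outside were si:ch73-46j18.5 at 1.998-fold, with 957 in mutant-labelled and 479 in WT libraries, zgc:64072 at 1.99-fold, with 455 and 905, and si:ch211-244b2.1 at 1.99-fold, with 107 and 213.

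The order of genes in assembly GRCz12tu was used to ask whether members lie beside other genes that differ. A neighbour here is the next placed gene of the deposited table in that order, at any distance. Of 86 members that could be placed among the genes of the table, 10 lay next to a gene that met the same numerical criteria, or 11.6%, a share near the 12.8% of all placed genes. The 10 pairs comprised 6 with the same direction and 4 with opposite directions, a split that was not computed for pairs of other genes. Members of a single pair were both clone-named: si:busm1-57f23.1 and si:busm1-79m10.4, described above, which were both lower. The other neighbour of si:busm1-57f23.1 was rassf6, with 123, 338 and 246 normalized counts in mutant-labelled and 689, 395 and 706 in WT libraries.

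Beside the recoverin gene zgc:73075 lay tmem238, with 65.2, 85.9 and 61.0 in mutant-labelled and 528, 401 and 264 in WT libraries, also lower. Beside zgc:194990 lay the integrin gene itgb4, with 57.8, 58.3 and 25.3 in mutant-labelled and 229.7, 119.9 and 65.2 in WT libraries. The members zgc:153012 and zgc:123305 had lower neighbours as well. The first had 107, 101 and 79.3 normalized counts in mutant-labelled libraries, against 259.8, 155 and 258 in WT libraries, and its neighbour ppp1r35 had 38.0, 61.3 and 14.8 against 69.8, 81.9 and 90.5. The second had 56.1, 105 and 112 normalized counts in mutant-labelled libraries, against 138, 141 and 268 in WT libraries, and its neighbour tpra1 had 229, 434 and 389 against 631, 755 and 864.

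In 4 pairs the member was lower and the neighbour higher. The co-repressor gene sin3b, next to si:dkey-6n6.7, had 441, 396 and 713 in mutant-labelled and 275, 289 and 208 in WT libraries. The Wnt antagonist gene sfrp1a, next to zgc:110340, had 95.8, 68.7 and 56.7 against 1.203, 40.0 and 26.6. The zinc-finger gene zc3h7a, next to zgc:92162, had 287, 413 and 486 against 139.5, 56.6 and 225. The member zgc:112185 had 28.9, 24.7 and 13.1 normalized counts in mutant-labelled libraries, against 71.0, 56.6 and 71.9 in WT libraries, and its neighbour anks3 had 134, 53.8 and 51.4 against 21.6, 16.6 and 10.6. Whether counting used strand is not stated, so reads of overlapping genes may be exchanged. In assembly GRCz12tu 8 members overlap another gene of the table, but the genes of the pairs described here do not overlap each other.

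Sums of some lists of cell type markers differed between the genotypes in the same libraries, while those of other lists overlapped. Their part in the members' differences was not tested. Over all genes tested, limma called 1.26% higher and 3.9% lower, and single genes did not overlap between the groups for 24.5%. Of 12 cone markers in the table, 9 were lower and 1 higher by limma, with sums of 1248637 to 2153178 normalized counts in mutant-labelled and 4150280 to 4393311 in WT libraries. The largest part of these sums was opn1lw2 (500401, 509325 and 1010645 against 1505207, 1479085 and 1693387). The cone marker opn1lw1 went the other way (7727, 47846 and 19223 against 2754, 1706 and 1620), and gngt2b overlapped (100025, 90225 and 194674 against 194489, 190155 and 198625). Sums that were higher without overlap were found for markers of Müller glia (45784 to 73136 in mutant-labelled against 29428 to 37091 in WT libraries, 1 of 7 tested genes higher) and of dividing cells (18031 to 19899 against 10157 to 13253, 2 of 8). The same held for amacrine cells (16280 to 19580 against 10852.5 to 14858.5, 2 of 8), horizontal cells (14294 to 15981 against 10278 to 13163, 2 of 7) and ganglion cells (2728 to 3192 against 1657 to 1844, 1 of 8). Without barhl2 (3263, 4629 and 3901 in mutant-labelled against 2028, 2117 and 1708 in WT libraries) the horizontal cell sums overlapped. In the same list slc32a1 was at 3539, 3366 and 4525 against 7169, 4279 and 4537. A single gene, robo2, made up most of the ganglion cell sums (2419, 2007 and 2043 against 1032, 1271 and 1242). In the Müller glia list glula did not overlap (25748, 40868 and 29843 against 11416, 15898 and 18956), while apoeb did (12525, 11154 and 11992 against 14178, 12461 and 8656). The most abundant amacrine marker, gad1b, overlapped (9391, 7437 and 7422 against 8784, 5576 and 5921), while tfap2b did not (2040, 1677 and 1411 against 695, 518 and 493). Sums overlapped for bipolar cells (602 to 1023 against 249 to 800), pigment cells (199.5 to 544 against 80.0 to 590), lens (265 to 1342.5 against 347 to 1515) and blood and immune cells (349 to 780 against 343 to 504), and none of their tested genes were called. No marker of these lists matched in the table was at 0 in all 6 libraries.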

How the data were processed

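RNA from sorted thrb:tdTomato-positive cells was sequenced as 150-base paired reads, in 3 libraries labelled samd7-/- and 3 WT libraries, from 300 pg of RNA with integrity numbers of 7.4 to 8.4 and 10000 to 25000 cells a library. The submitters' processing notes name STAR 2.7.2b, Trim Galore 0.6.1, DESeq2 1.34.0, HTSeq 0.9.1, R 4.1.3 and the danRer10 genome build. For the annotation and strand setting, nothing is given in the sources used here. The deposited library columns hold a signal, read counts divided by a size factor (normalized counts). The unit is inferred from the numbers, since 100% of values above 0 were whole multiples of 1 step per library, within 0.01 read. The deposited log2 fold changes and adjusted p-values are the authors' and are used only where named.

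The members and lists were chosen with earlier results of these data known. All members may be named, and library values are given for those with the largest ratios, the most abundant, those with a present symbol, those next to another gene that meets the criteria and those at the limits of the rule. One further entry that met the rule is not reported here. The background fit used limma 3.58.1 (R 4.3.3, trend and robust options) on log2(normalized counts + 1), for genes that reached 10 normalized counts in 3 or more libraries, and genotype as the only term. Alternatives used other limits, scalings, pseudocounts and filters, edgeR 4.0.16 and DESeq2 1.42.0 on recovered reads, the replicate number as a block, and each library left out. Lists of marker genes for 11 cell types gave context, of which the rod list is not reported here. Each library came from its own clutch, so the spread between libraries is biological as well as technical.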

Additional observations from a re-analysis of the deposited data

How the results depend on the processing

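The number of members followed the limits of the rule: 146 with a 1.5-fold limit, 42 with a 3-fold limit and 191 with overlap allowed. With 1 library left out it was 124 to 144, because fewer libraries overlap less often, and 80 to 86 of the 91 members were among them; the highest counts were 144 when WT library 1 was absent and 139 when mutant-labelled library 3 was. The fit across all genes called 511 of 9886 genes (5.17%). DESeq2 called 870 of the 7004 genes to which it gave an adjusted p (12.4%). With 1 library left out the fit called 219 to 580 genes (2.27% to 6.01%). The low values were 268 when mutant-labelled library 1 was absent and 299 and 219 when WT library 1 or 2 was. Members among the calls numbered 28 of 90, and 36 of 56 by DESeq2. With 1 library left out they numbered 18 to 28, the lowest without WT library 2. The same contrast chose the members, so their counts among the calls support nothing. Same-numbered libraries showed no shared pattern of deviations (correlations 0.046, -0.034 and 0.012, against -0.051 to 0.04 for differently numbered ones). Whether same-numbered libraries were prepared together was not tested. With the replicate number as a block 431 genes and 28 members were called. Of 1244 log2 differences of members under these settings none changed sign. Of them, 9 moved by more than the spread between libraries, 7 of these under library totals. The rule kept only groups without overlap, so leaving out a library or changing the pseudocount or filter could not change a sign. Leaving out a library also cannot move a difference by more than that spread. For those settings these counts are no check of the members.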
